A study of Mus musculus with 16 samples.

Results

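Mitochondrial ribosomal protein genes were taken as the rows of the expression table whose name is Mrpl or Mrps followed by a digit, with pseudogene names left out and a mean above 1 FPKM required in at least 1 group. FPKM counts fragments per kilobase of transcript, scaled to the mapped fragments of the library, and so is a level per length. The rule found 76 genes among 38396 rows, of which 21374 are protein-coding. All 76 rows that matched the name passed the FPKM limit, and the member nearest to it, Mrpl35, reached 10.5 FPKM in its highest group, so no gene was lost just outside the limit. The 4 rows named as pseudogenes were left out by name.

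The measurements are 16 RNA-seq libraries of mouse fat at 12 weeks of age. Adipoq-Cre;HuRf/f mice (HuR-FKO), in which the adiponectin promoter drives Cre and so targets Elavl1, the gene of the RNA-binding protein HuR, in mature adipocytes, were set against littermate HuRf/f mice without Cre (Ctrl), so that both genotypes carry the floxed alleles. Brown fat (BAT) gave 2 libraries per genotype, and epididymal (eWAT) and inguinal white fat (iWAT) gave 3 libraries per genotype each. Each library was made from RNA pooled from 3 animals, so errors describe the spread between pools, and cells of the depot other than adipocytes keep HuR.

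Mitochondrial ribosomes translate the mRNAs of the mitochondrial genome, which encode core subunits of the respiratory chain and ATP synthase. Their RNAs come from mitochondrial DNA, but every protein of the large subunit (Mrpl genes) and the small subunit (most Mrps genes) is encoded in the nucleus, made in the cytosol and imported. Part of these proteins descend from bacterial ribosomal proteins and part are specific to mitochondria. Brown adipocytes are known for dense, cristae-rich mitochondria that carry the uncoupling protein Ucp1.

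By subunit and origin, the list holds 30 large-subunit proteins with bacterial homologs and 19 that are mitochondria-specific, together with 16 small-subunit proteins with bacterial homologs and 10 that are mitochondria-specific. The numbering hides 3 exceptions. Mrps30 and Mrps18a encode proteins that sit in the large subunit and were counted there. Mrps36 encodes KGD4, which belongs to the oxoglutarate dehydrogenase complex of the citric acid cycle and is not a ribosomal protein, and it was kept apart.

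Elavl1 itself showed no decrease with the HuR-FKO label, with log2 differences of 0.11 in BAT, 0.10 in eWAT and 0.14 in iWAT (limma adjusted p of 0.86, 0.88 and 0.82). It had 8.98 and 8.17 FPKM in HuR-FKO BAT against 8.34 and 7.36 in Ctrl BAT, 13.9, 15.4 and 13.3 in HuR-FKO eWAT against 13.6, 13.8 and 12.2 in Ctrl eWAT, and 16.5, 15.3 and 13.9 in HuR-FKO iWAT against 13.2, 15.8 and 12.4 in Ctrl iWAT. The sources used here do not name the deleted exons, and a gene-level value also counts exons outside them and RNA of cells without Cre. The Elavl1 FPKM thus gives no check of the genotype labels. The paper itself reports loss of HuR in BAT, iWAT and eWAT of these mice by real-time PCR and western blot. Marker genes followed the depot labels. Ucp1 was at 685 to 1165 FPKM in the 4 BAT libraries, 8.33 to 182 in iWAT and at most 0.881 in eWAT, and the adipocyte hormone Adipoq was at 482 FPKM or more in all 16 libraries.

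BAT libraries stood apart from the white fat libraries beyond the members. Over all rows, FPKM summed to 719411 to 796184 in BAT, 3460330 to 6831530 in eWAT and 4384800 to 12928400 in iWAT. Whether BAT libraries were processed differently was not tested, and such a difference could not be told apart from depot in the BAT comparisons. Transcripts encoded in mitochondrial DNA took 37.6% to 44.5% of the protein-coding FPKM in BAT, against 12.1% to 16.8% in eWAT and 19.6% to 27.3% in iWAT. FPKM is relative to all mapped fragments of a library. The scaling factor from the median ratio to other libraries was 0.665 to 0.713 in BAT and 1.07 to 1.18 in white fat. How much of this goes with the mitochondrially encoded share was not tested. In BAT, 4 of the 13 mitochondrially encoded subunits (mt-Co1, mt-Co3, mt-Atp6 and mt-Atp8) were listed at exactly 0 in all 4 libraries, while no member was listed at 0 in any library. In white fat these 4 summed to 37973 to 94505 FPKM, so the BAT share leaves out genes that the white fat shares hold. With the 4 genes left out of every library, the mitochondrially encoded share was 37.6% to 44.5% in BAT, against 6.06% to 8.93% in eWAT and 9.45% to 14.9% in iWAT. Skeletal muscle markers summed to 1187 to 3751 FPKM in BAT, 14.5 to 2620 in iWAT and at most 8.69 in eWAT, and in bulk tissue a change in the number of cells cannot be told apart from a change in RNA per cell.

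The levels of the 76 genes spanned a wide range. Averaged over the 6 groups of depot and genotype, they ran from 7.59 FPKM for Mrpl35 to 180 FPKM for Mrps21, a ratio of 23.8, with a median of 41.7 FPKM. The highest means were those of Mrps21, Mrpl33, Mrpl42, Mrpl20 and Mrps36 at 180, 134, 128, 98.2 and 97.0 FPKM. The lowest were those of Mrpl35, Mrpl1, Mrpl19, Mrpl11 and Mrps27 at 7.59, 9.74, 10.5, 12.4 and 13.5 FPKM. The first 2 genes in this order overlapped between libraries, since Mrps21 ran from 137 to 281 FPKM and Mrpl33 from 108 to 156 FPKM. Genes with longer transcripts tended to have lower FPKM, with Spearman's rho of -0.32 over the 76 genes as a description, and genes are not independent replicates. Of the 76 genes, 32 share exon bases with another annotated gene, 8 of them on the same strand, and Mrps36 has pseudogene copies (Mrps36-ps1 and Mrps36-ps2), so reads of these genes may have been split between annotations.

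**Figure D1:**
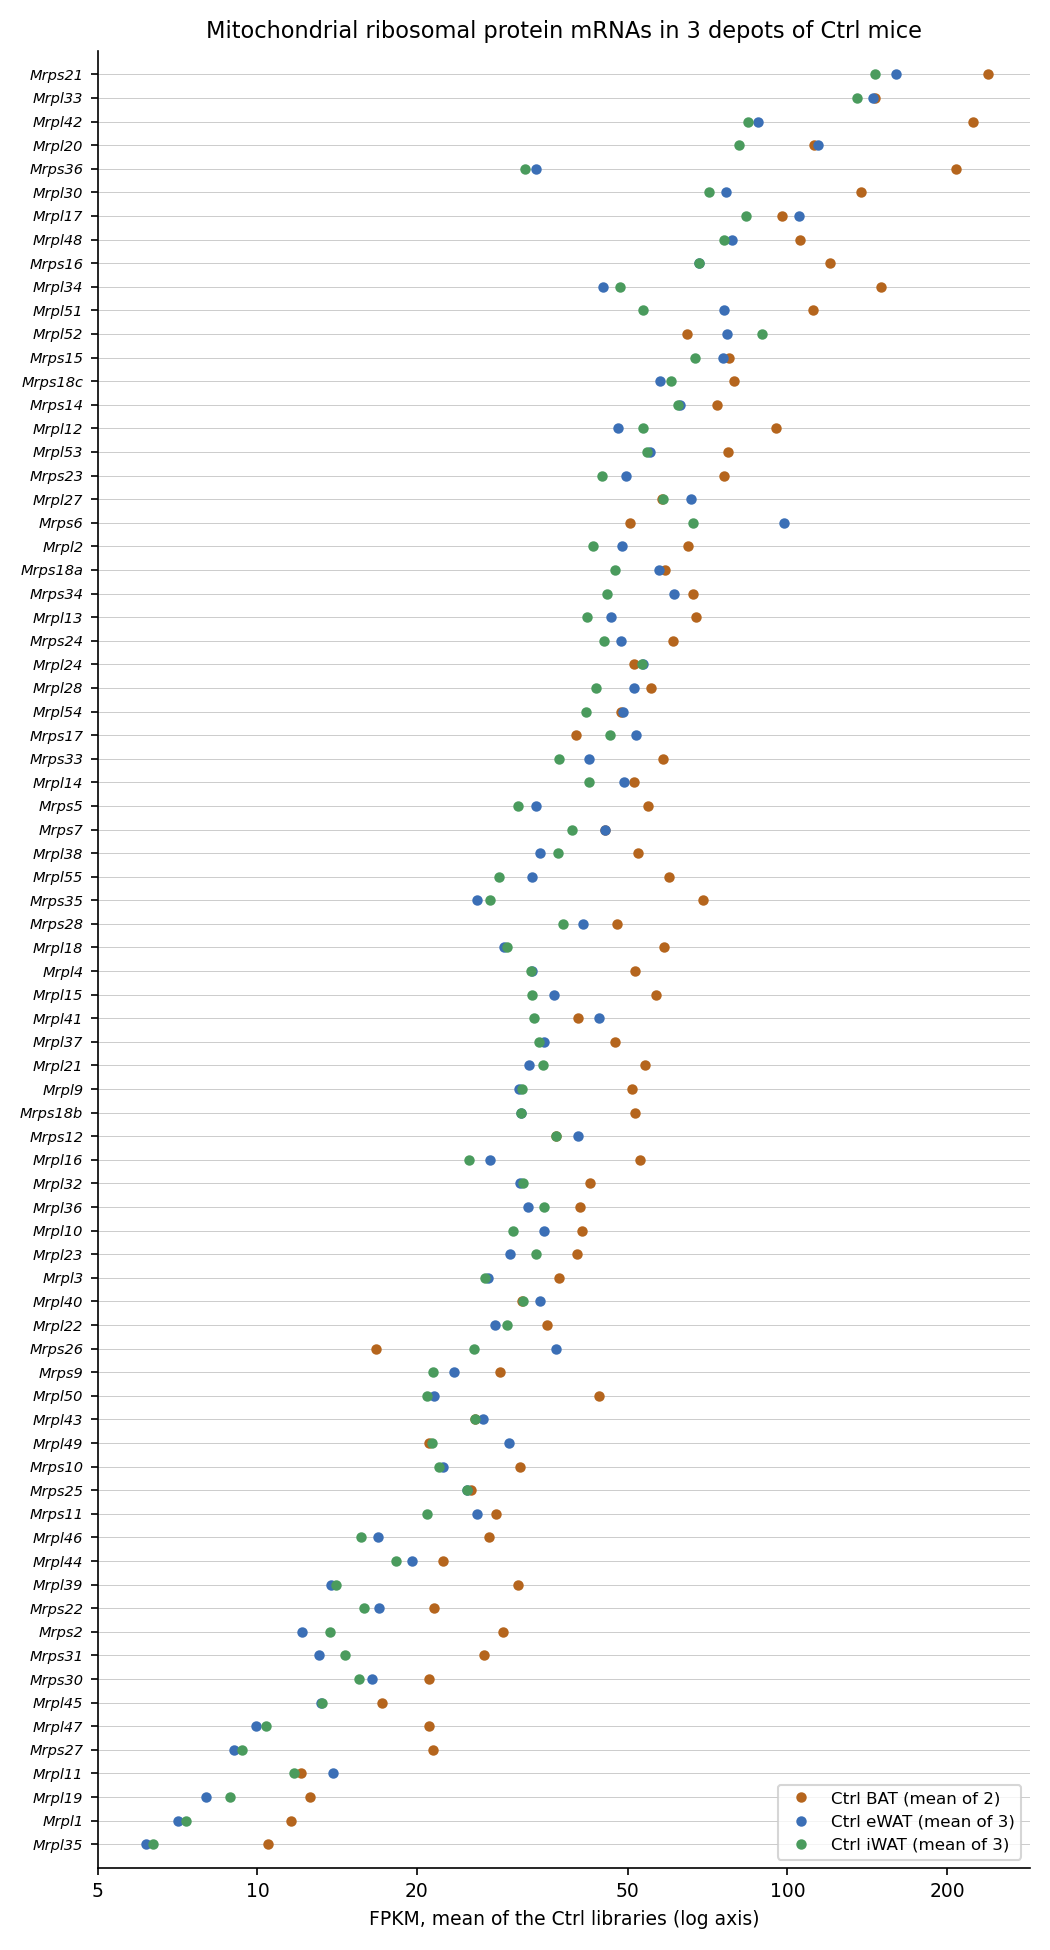
Mean FPKM of the 76 mitochondrial ribosomal protein genes in Ctrl BAT (n = 2 libraries), Ctrl eWAT and Ctrl iWAT (n = 3 each), on a log axis, with genes ordered by their mean over all 6 groups. For most genes the BAT point lies to the right of both white fat points, farthest for Mrps36, and Mrps26 and Mrps6 are among the few where it lies to the left, although against iWAT both turn to the other side with median-ratio scaling (0.058 and 0.30 on the log2 scale).

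The first comparison asked how the depots differ within Ctrl mice. Most mitochondrial ribosomal protein mRNAs were higher in BAT than in either white depot, and the difference was of moderate size. Against iWAT, 47 of the 76 genes were higher in BAT and 2 were lower at an adjusted p under 0.05 (limma on log2(FPKM + 1), Benjamini-Hochberg over all 13094 protein-coding genes tested), against 8.89% of all genes tested that were higher and 65.6% that were lower. Their median log2 difference was 0.47, while the median over all genes was -0.69. Against eWAT, 41 were higher and 3 were lower, beside 9.35% and 64.9% of all genes, with a median of 0.43 for the members and -0.66 for all genes. Thus 76 of 76 members lay above the all-gene median against iWAT, and 74 of 76 against eWAT.

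Since most genes were lower in BAT on the FPKM scale, the size and the count depended on scaling. With libraries scaled by the median ratio, 72 members were higher and 0 lower against iWAT, with a median of 1.13, beside 22.8% of all genes that were higher and 34.2% that were lower under that scaling. Against eWAT the median was 1.12, and 71 were higher and 1 lower, beside 22.6% and 30.9%. With nuclear protein-coding FPKM rescaled to the same sum, 64 were higher and 1 lower against iWAT, beside 12.8% and 53.9% of all genes, and 59 were higher and 2 lower against eWAT, beside 13.6% and 46.8%. The direction of the members' median was the same under each scaling.

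Per library, the median over the 76 genes was 51.8 and 49.3 FPKM in HuR-FKO BAT and 54.5 and 45.3 in Ctrl BAT. It was 34.5, 38.9 and 34.0 FPKM in HuR-FKO eWAT against 36.2, 32.3 and 35.9 in Ctrl eWAT, and 38.5, 37.2 and 35.0 in HuR-FKO iWAT against 34.9, 33.2 and 31.9 in Ctrl iWAT. The 4 BAT libraries lay above all 12 white fat libraries. As a share of the nuclear protein-coding FPKM, the summed members made up 1.06% to 1.24% in BAT, 0.587% to 0.672% in eWAT and 0.595% to 0.706% in iWAT.

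**Figure D2:**
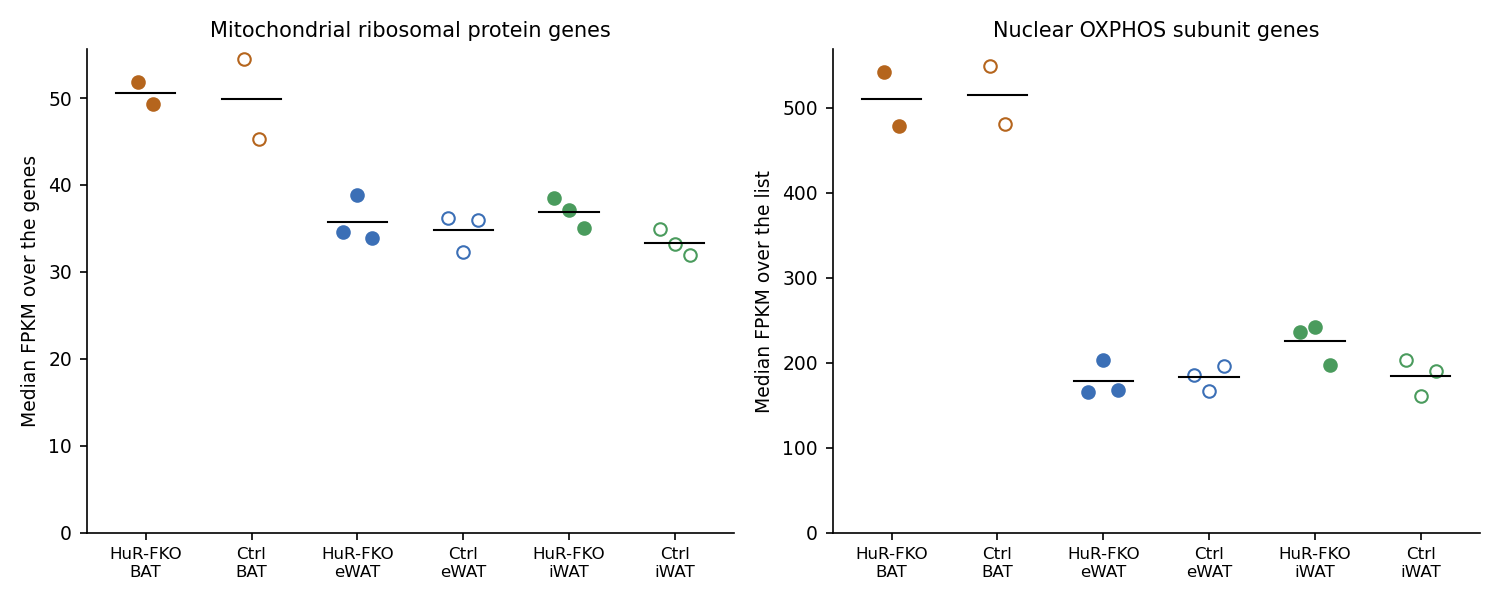
Median FPKM per library over the 76 mitochondrial ribosomal protein genes (left) and over the nuclear genes of oxidative phosphorylation (OXPHOS) subunits (right), with filled points for HuR-FKO, open points for Ctrl and a line at the group mean. The members' medians sit between 45.3 and 54.5 FPKM in BAT and between 31.9 and 38.9 FPKM in white fat, and the OXPHOS medians between 478 and 550 FPKM in BAT and between 161 and 242 FPKM in white fat.

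All 4 structural classes shared the direction. Against iWAT, large-subunit proteins with bacterial homologs had a median log2 difference of 0.53 with 19 of 30 higher and 0 lower, and mitochondria-specific large-subunit proteins one of 0.39 with 11 of 19 higher and 1 lower. Small-subunit homologs had a median of 0.40 with 9 of 16 higher and 0 lower, and mitochondria-specific small-subunit proteins one of 0.66 with 7 of 10 higher and 1 lower. The classes overlapped widely and differences between them were not tested.

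The same depot difference was measured a second time in the libraries labelled HuR-FKO, which share no library with Ctrl. There 45 members were higher and 2 lower in BAT than in iWAT (background 8.62% and 68.3% of all genes), with a median of 0.44. Against eWAT, 46 were higher and 5 lower (background 9.11% and 68.5%), with a median of 0.50. Of the members higher against iWAT, 42 were called in both genotypes, which is 89.4% of the Ctrl list and 93.3% of the HuR-FKO list. In all, 35 of the 76 genes were higher in BAT in all 4 comparisons, beside 6.19% of the 12871 genes tested in each. Another 17 passed the threshold in none of them, beside 8.73%, among them Mrpl11, Mrpl33, Mrpl36, Mrpl41, Mrps12 and Mrps18a.

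**Figure D3:**
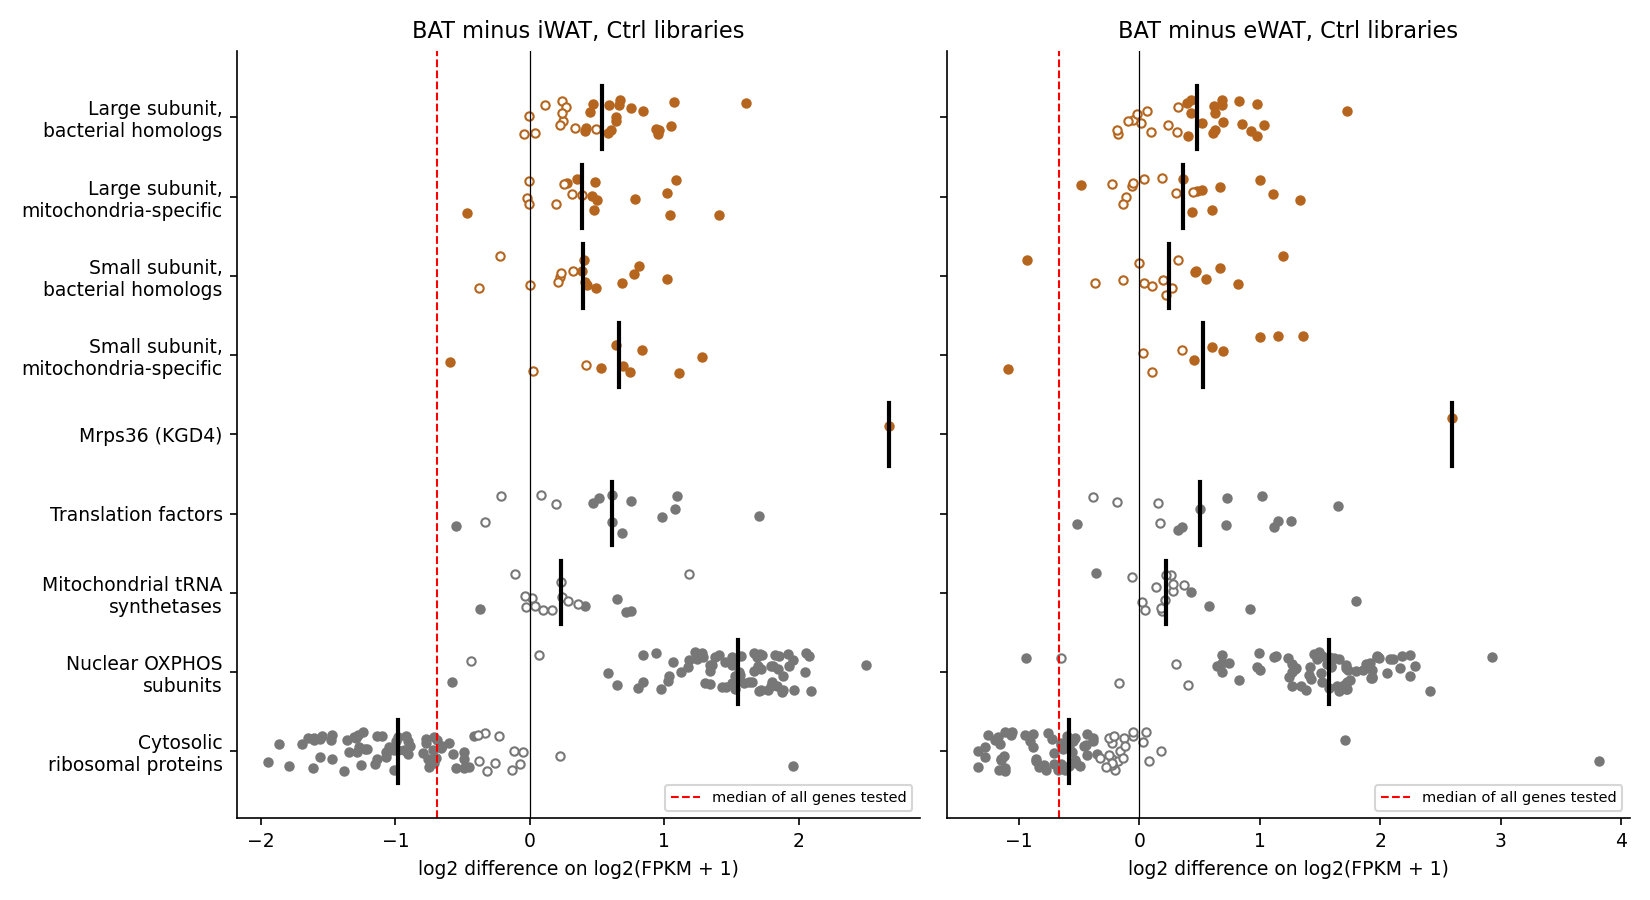
log2 differences on log2(FPKM + 1) of BAT minus iWAT (left) and BAT minus eWAT (right) in Ctrl libraries, 1 point per gene, filled where the adjusted p was under 0.05, with a bar at each list's median and a dashed line at the median of all genes tested. The mitochondrial ribosomal classes have medians of 0.25 to 0.66, between nuclear OXPHOS subunits (1.55 and 1.57) and cytosolic ribosomal proteins (-0.98 and -0.59).

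Mrps36 differed most between depots. In Ctrl mice it had 224 and 192 FPKM in BAT, against 31.6, 27.6 and 36.7 FPKM in iWAT and 33.5, 30.4 and 37.0 FPKM in eWAT. The groups did not overlap, and the lowest BAT library was over 5 times the highest white fat library. The log2 difference was 2.67 ± 0.15 (SE) against iWAT (limma adjusted p = 1.6e-06) and 2.60 ± 0.15 against eWAT (adjusted p = 1.7e-06). In HuR-FKO libraries it had 233 and 213 FPKM in BAT, 30.6, 37.2 and 36.9 in eWAT and 49.0, 56.8 and 47.0 in iWAT. Over the 16 libraries the protein-coding genes most alike in log2 level were Ldhb, which encodes a lactate dehydrogenase subunit, and the complex I subunits Ndufs3 and Ndufa9, with Pearson's r of 0.997, 0.994 and 0.993, as a description that rests mainly on the depots.

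Among true ribosomal proteins, Mrpl34 and Mrpl42 differed most against iWAT. Mrpl34, a small large-subunit protein with a bacterial homolog, had 157 and 143 FPKM in Ctrl BAT, against 47.9, 45.8 and 51.4 in Ctrl iWAT and 51.8, 37.6 and 45.2 in Ctrl eWAT. Its log2 difference was 1.61 ± 0.14 against iWAT (limma adjusted p = 1.2e-05) and 1.73 ± 0.14 against eWAT (adjusted p = 9.2e-06). Mrpl42, a mitochondria-specific large-subunit protein, had 239 and 209 FPKM in Ctrl BAT, against 81.8, 77.2 and 93.4 in Ctrl iWAT and 85.6, 84.0 and 94.6 in Ctrl eWAT, a log2 difference of 1.40 ± 0.13 and 1.34 ± 0.13. For both genes every BAT library lay above every white fat library.

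Mitochondria-specific small-subunit proteins followed. Mrps35 had 82.6 and 56.2 FPKM in Ctrl BAT, against 26.2, 26.6 and 29.6 in Ctrl iWAT, and Mrps27, a pentatricopeptide repeat protein, had 24.0 and 18.9 FPKM in Ctrl BAT, against 9.37, 9.27 and 9.43 in Ctrl iWAT. The log2 differences were 1.28 ± 0.16 and 1.11 ± 0.13. Mrps2, a small-subunit protein with a bacterial homolog, had 31.4 and 26.6 FPKM in Ctrl BAT against 13.3, 12.2 and 10.9 in Ctrl eWAT, a log2 difference of 1.19 ± 0.13 (limma adjusted p = 3.7e-05). Mrpl39, a large-subunit protein related to threonyl-tRNA synthetases, had 30.9 and 31.0 FPKM in Ctrl BAT, against 14.7, 15.1 and 12.5 in Ctrl iWAT.

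Few members were lower in BAT. Mrps26 had 18.7 and 14.8 FPKM in Ctrl BAT, against 37.2, 34.6 and 38.1 in Ctrl eWAT and 27.7, 24.3 and 24.9 in Ctrl iWAT. Its log2 difference was -1.09 ± 0.13 against eWAT (limma adjusted p = 6.9e-05) and -0.59 ± 0.13 against iWAT (adjusted p = 0.0025), but with median-ratio scaling the value against iWAT turned to 0.058. Mrpl49 was lower against eWAT (-0.48 ± 0.11) and Mrpl52 against iWAT (-0.46 ± 0.19), and both turned to positive values with median-ratio scaling (0.20 and 0.21). Mrps6 was lower against eWAT (-0.94 ± 0.18, adjusted p = 0.0012) and had -0.38 ± 0.18 against iWAT (adjusted p = 0.083), which turned to 0.30 with median-ratio scaling. Mrps17 had -0.22 against iWAT and -0.36 against eWAT, and Mrpl24 had -0.04 against iWAT, neither past the threshold, and these turned to 0.45, 0.33 and 0.63 with median-ratio scaling. Relative to the all-gene median, the 2 members below it against eWAT were Mrps26 and Mrps6 (-0.43 and -0.27).

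Members with known roles beyond the ribosome's core were examined by role. Mrpl12, which with Mrpl10 and Mrpl11 belongs to the stalk that receives translation factors, had 106 and 84.0 FPKM in Ctrl BAT against 70.0, 46.6 and 43.6 in Ctrl iWAT, and was higher (0.84 ± 0.22, limma adjusted p = 0.0059). Mrpl10 was higher against iWAT (0.42 ± 0.12, adjusted p = 0.0105), while Mrpl11 had 12.0 and 12.2 FPKM in Ctrl BAT against 12.2, 11.7 and 11.4 in Ctrl iWAT (0.04 ± 0.11). Mammals carry 3 paralogs of the S18 protein, and Mrps18b (0.69 ± 0.14) and Mrps18c (0.39 ± 0.12), both in the small subunit, were higher in BAT than in iWAT, whereas Mrps18a of the large subunit had 0.31 ± 0.13 (adjusted p = 0.053). Mrps12, the protein of the decoding centre, had 39.1 and 34.2 FPKM in Ctrl BAT and 35.1, 34.4 and 40.4 in Ctrl iWAT, so the groups overlapped. Mrpl45, which lies at the exit of the peptide tunnel and binds the inner membrane, was higher in BAT (0.35 ± 0.12), as was Mrpl44 (0.28 ± 0.11, adjusted p = 0.050), while Mrpl41, Mrpl36 and Mrps30 had 0.26, 0.24 and 0.39 and did not pass.

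Promoters of some members that were higher in BAT are shown as a description. The set does not follow the order of the differences, since Mrpl39 is shown and Mrps35, Mrps27 and Mrps2 are not. RefSeq sequences (GRCm38.p6) from 250 bases before to 50 after the start site matched 67 of the 76 genes. Motifs were searched on both strands: the core of NRF1, a regulator of nuclear genes for mitochondria, as GCGCATGCG, the ETS-factor core as CCGGAAG, and the YY1 core as AAGATGGC. The NRF1 core was in 7 of the 67 (10.4%) against 2.52% of 16522 protein-coding promoters, the ETS core in 23 (34.3%) against 12.3%, and the YY1 core in 12 (17.9%) against 3.29%. The CCAAT box was in 40.3% against 38.7% and TATAAA in 5.97% against 12.9%. The SP1 core GGGCGG was in 49.3% against 48.0%, and the ERR core CAAGGTCA in 2 of the 67 (2.99%) against 1.24%. These matches describe letters in a window and are not binding data. Capitals below mark the NRF1, ETS or YY1 cores, and Mrps36, at chr13:100744610-100744909 on the minus strand, holds none of them.
Mrps36: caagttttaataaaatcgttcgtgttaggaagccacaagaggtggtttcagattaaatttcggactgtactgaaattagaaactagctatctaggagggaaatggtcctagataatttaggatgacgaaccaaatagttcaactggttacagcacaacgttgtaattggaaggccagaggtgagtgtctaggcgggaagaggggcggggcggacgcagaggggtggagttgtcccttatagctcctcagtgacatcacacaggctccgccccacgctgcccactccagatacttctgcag
Mrpl34 (chr8:71464676-71464975, plus strand, ETS core 37 bases before the start): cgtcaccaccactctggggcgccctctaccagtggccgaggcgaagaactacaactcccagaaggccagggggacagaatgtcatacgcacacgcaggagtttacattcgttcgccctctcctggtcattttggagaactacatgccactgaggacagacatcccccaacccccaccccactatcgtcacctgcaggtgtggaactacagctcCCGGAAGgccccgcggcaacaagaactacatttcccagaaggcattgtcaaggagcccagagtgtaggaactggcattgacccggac
Mrpl42 (chr10:95501900-95502199, minus strand, YY1 core from base 28 after the start): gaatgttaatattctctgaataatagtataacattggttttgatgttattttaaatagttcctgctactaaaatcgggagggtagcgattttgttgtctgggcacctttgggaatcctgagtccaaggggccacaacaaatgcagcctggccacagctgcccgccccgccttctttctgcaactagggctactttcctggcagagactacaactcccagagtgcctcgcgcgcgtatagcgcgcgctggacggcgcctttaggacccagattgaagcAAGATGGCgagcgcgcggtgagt
Mrpl39 (chr16:84735195-84735494, minus strand, NRF1 core on both strands): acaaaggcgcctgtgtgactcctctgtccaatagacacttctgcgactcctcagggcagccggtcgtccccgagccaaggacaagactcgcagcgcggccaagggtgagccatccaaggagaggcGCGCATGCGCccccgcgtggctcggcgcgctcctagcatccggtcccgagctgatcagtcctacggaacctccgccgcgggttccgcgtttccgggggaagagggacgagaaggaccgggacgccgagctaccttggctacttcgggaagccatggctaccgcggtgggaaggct

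Other parts of the mitochondrial expression system were measured alongside, and differences between these lists were not tested. Of all genes tested, 8.89% were higher in BAT than in iWAT in Ctrl and 65.6% were lower. Translation factors had a median log2 difference of 0.61 between BAT and iWAT in Ctrl, with 10 of 15 higher and 1 lower. Tufm, the elongation factor Tu, had 134 and 144 FPKM in Ctrl BAT against 49.4, 39.4 and 37.8 in Ctrl iWAT. Mitochondrial aminoacyl-tRNA synthetases had a median of 0.23, with 4 of 17 higher and 1 lower, and ribosome assembly and rRNA factors one of -0.10, with 5 of 22 higher and 5 lower. Mitoribosomal proteins under other names, such as Dap3 and Ptcd3, had 3 of 8 higher, 0 lower and a median of 0.17.

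Nuclear OXPHOS subunits differed more. These OXPHOS subunits had a median of 1.55 between BAT and iWAT, with 70 of 73 higher and 1 lower, and 1.57 between BAT and eWAT. The summed FPKM of the members was 0.0808 to 0.0891 of that of the nuclear OXPHOS subunits in BAT, against 0.171 to 0.181 in eWAT and 0.138 to 0.178 in iWAT. Cytosolic ribosomal proteins had a median of -0.98 between BAT and iWAT, with 1 of 77 higher and 65 lower. Skeletal muscle markers (7 of 9 higher) also moved with the BAT difference against iWAT, while macrophage markers (9 of 9) and progenitor and fibroblast markers (8 of 8) were lower in BAT. These counts stand beside 8.89% of all genes that were higher in BAT than in iWAT and 65.6% that were lower. The part of these cells in the members' levels was not tested.

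Between the white depots the members were close. In Ctrl, 6 of 76 were higher and 0 lower in eWAT than in iWAT, beside 12.2% and 15.9% of all genes, with a median of 0.08 against -0.02 for all genes. They were Mrps6, Mrpl51, Mrps26, Mrpl20, Mrpl49 and Mrps34, with log2 differences of 0.42 to 0.56. Mrpl49 averaged 29.8 ± 0.552 FPKM in Ctrl eWAT and 21.4 ± 1.62 FPKM in Ctrl iWAT (SD, n = 3 each), and Mrps26 had 37.2, 34.6 and 38.1 against 27.7, 24.3 and 24.9, without overlap. Mrps34 and Mrpl20 were also higher in HuR-FKO eWAT, as was Mrpl49. In the HuR-FKO libraries 4 members were higher and 2 lower (background 14.9% and 14.9%), and the lower ones were Mrps36 (-0.53 ± 0.11) and Mrpl39 (-0.36 ± 0.10). The Ctrl count rested on single libraries. It was 1 without Ctrl eWAT replicate 3 and 2 without Ctrl eWAT replicate 1, Ctrl iWAT replicate 2 or Ctrl iWAT replicate 3, and the HuR-FKO total of 6 was 3 without HuR-FKO iWAT replicate 2 and 9 without HuR-FKO iWAT replicate 3.

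The second comparison asked what changed in the libraries labelled HuR-FKO against Ctrl in each depot. No member passed the threshold in any depot (limma, Benjamini-Hochberg), beside 0.0404% of all genes in eWAT, 0.0392% in iWAT and 0% in BAT. In eWAT the members' median log2 difference was 0.00 (all genes -0.01), with 38 of 76 above 0. Before adjustment, 0 members had a p under 0.05 with a higher value there and 3 with a lower one, beside 3.86% and 3.82% of all genes. In BAT the median was 0.03 (all genes -0.05), with 40 of 76 above 0, but it ran from -0.053 without Ctrl BAT replicate 2 to 0.15 without Ctrl BAT replicate 1. The eWAT median ran from -0.067 without HuR-FKO eWAT replicate 2 to 0.032 without HuR-FKO eWAT replicate 3. Before adjustment, 5 BAT members had a p under 0.05 with a higher value and 2 with a lower one, beside 2.91% and 6.75%.

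In iWAT the members leaned upward. Their median log2 difference was 0.11 (all genes -0.04), and 57 of 76 lay above 0 against 40.3% of all genes. Before adjustment, 11 had a p under 0.05 with a higher value and 1 with a lower one, beside 3.74% and 5.52%. Leaving out 1 library at a time, the median ran from 0.07 (without Ctrl iWAT replicate 2 or HuR-FKO iWAT replicate 1) to 0.16. Mrps35 had 38.5, 37.0 and 31.8 FPKM in HuR-FKO iWAT against 26.2, 26.6 and 29.6 in Ctrl iWAT, without overlap (0.36 ± 0.11, limma adjusted p = 0.395). The nuclear OXPHOS subunits had a median of 0.26 with 71 of 73 above 0, and Ucp1 had 139, 182 and 101 FPKM in HuR-FKO iWAT against 25.3, 8.33 and 21.6 in Ctrl iWAT. Skeletal muscle markers were below 0 in 9 of 9 with a median of -2.32, summed to 14.5, 225 and 577 FPKM in HuR-FKO iWAT against 345, 445 and 2620 in Ctrl iWAT, and progenitor and fibroblast markers were below 0 in 8 of 8 (median -0.47), as were macrophage markers in 8 of 9 (-0.23). Brown adipocyte markers were above 0 in 7 of 9 (median 0.79), B cell markers in 8 of 8 (0.37), endothelial markers in 8 of 8 (0.25) and red cell genes in 4 of 4 (0.68). Summed B cell markers overlapped, at 240, 248 and 126 FPKM in HuR-FKO iWAT against 53.0, 264 and 184 in Ctrl iWAT. Sums of endothelial, T cell and adipocyte markers also overlapped, while those of brown adipocyte markers and red cell genes did not. The part of these cells in the members' levels was not tested.

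**Figure D4:**
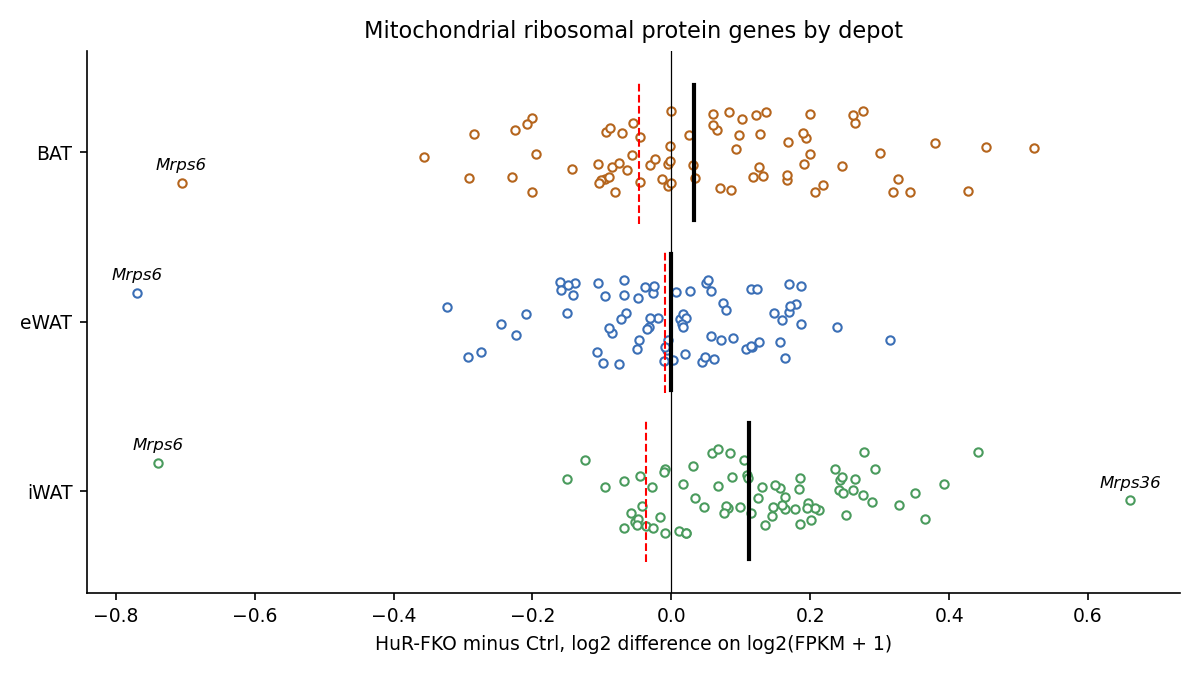
log2 differences on log2(FPKM + 1) of HuR-FKO minus Ctrl for the 76 genes in BAT, eWAT and iWAT, with a bar at the members' median and a dashed line at the median of all genes tested in that depot. Open points mark that no gene passed the adjusted threshold, Mrps6 lies apart at -0.71, -0.77 and -0.74, and the iWAT points are shifted to a median of 0.11.

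Mrps6, a small-subunit protein with a bacterial homolog, had the smallest p of the 76 genes in all 3 depots. It had 33.2 and 28.2 FPKM in HuR-FKO BAT against 53.2 and 47.9 in Ctrl BAT. In eWAT it had 61.7, 71.5 and 41.3 FPKM in HuR-FKO against 118, 81.4 and 96.7 in Ctrl, and in iWAT 40.2, 39.3 and 37.6 FPKM in HuR-FKO against 77.5, 56.0 and 65.7 in Ctrl. In each depot every library labelled HuR-FKO lay below every Ctrl library. The log2 differences were -0.71 ± 0.15 in BAT (limma adjusted p = 0.32), -0.77 ± 0.21 in eWAT (adjusted p = 0.42) and -0.74 ± 0.13 in iWAT (adjusted p = 0.21), so none passed after adjustment over all genes.

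A mean of the 3 effects in 1 fit of all 16 libraries, added after these values had been seen, gave -0.74 ± 0.11 for Mrps6 (limma adjusted p = 0.0041), with 2.69% of 13281 genes past the threshold in either direction. Leaving out any 1 library kept it between -0.79 and -0.66 with adjusted p of at most 0.023. In the same fit Mrpl45 (0.28 ± 0.05, limma adjusted p = 0.018) and Mrps5 (0.33 ± 0.07, adjusted p = 0.030) were higher. Thus 3 of 76 members passed, a count near the share of 2.69% over all genes. Mrpl45 had 21.9 and 22.3 FPKM in HuR-FKO BAT against 17.2 and 17.2 in Ctrl BAT, and 16.1, 15.8 and 16.3 in HuR-FKO iWAT against 13.3, 12.9 and 13.6 in Ctrl iWAT. In eWAT its groups overlapped, at 14.4, 16.0 and 16.7 FPKM in HuR-FKO and 13.2, 14.4 and 11.8 in Ctrl. Mrps5 did not overlap in any depot, and without either HuR-FKO BAT library only Mrps6 of the 76 still passed.

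The 3′ untranslated region of Mrps6, of 302 bases, holds 1 copy of ATTTA, the pentamer of AU-rich elements, to which HuR is known to bind, and it is shown because Mrps6 differed most by genotype. A match is a description of letters and not a binding site. The pentamer is in capitals within 29 bases (chr16:92111940-92111968, plus strand, GENCODE M21 on GRCm38), and its promoter (chr16:92058086-92058385, plus strand) holds none of the 3 cores.
Mrps6 site: ttctggccttatATTTAatcctaagggca
Mrps6 promoter: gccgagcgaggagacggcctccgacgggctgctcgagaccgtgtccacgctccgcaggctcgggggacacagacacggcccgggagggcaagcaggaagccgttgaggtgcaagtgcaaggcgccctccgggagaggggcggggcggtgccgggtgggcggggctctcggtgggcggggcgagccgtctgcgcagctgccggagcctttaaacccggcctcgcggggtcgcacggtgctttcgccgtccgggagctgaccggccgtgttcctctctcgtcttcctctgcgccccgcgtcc
Over the members, 42 of 76 (55.3%) had an ATTTA in the 3′ untranslated region of the transcript with the longest coding sequence, against 58.1% of 21951 protein-coding genes. Mrps36, Mrpl34 and Mrpl42 had 0 copies, while Mrpl45 and Mrps5, which were higher in the averaged fit, had 1 and 5. Mrps6 shares 159 exon bases with Slc5a3 and 305 with Gm49711 on the same strand, and Slc5a3 was at 1.39 to 5.06 FPKM, against 28.2 to 118 FPKM for Mrps6. Slc5a3 also lay below 0 by genotype, at -0.37 ± 0.21 in BAT, -0.32 ± 0.25 in eWAT and -0.36 ± 0.19 in iWAT. Averaged over depots it had -0.35 ± 0.14 (limma adjusted p = 0.21), and none of these values passed the threshold. The part of shared reads in the Mrps6 values was not tested.

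**Figure D5:**
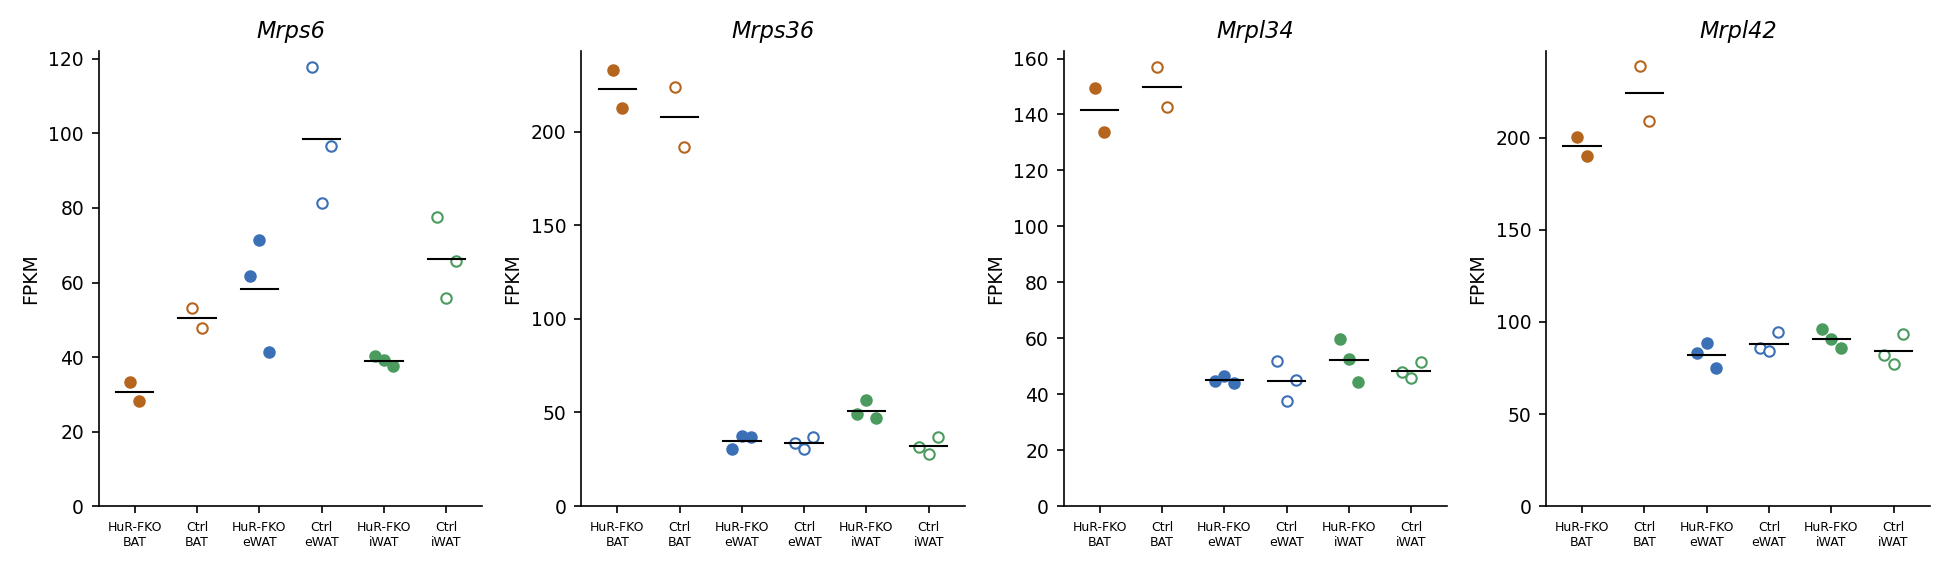
FPKM per library of Mrps6, Mrps36, Mrpl34 and Mrpl42 in the 6 groups, with filled points for HuR-FKO, open points for Ctrl and a line at the group mean. In each depot all Mrps6 points of HuR-FKO lie below those of Ctrl, and for the other 3 genes the BAT points lie far above the white fat points.

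Mrps36 came next in iWAT. It had 49.0, 56.8 and 47.0 FPKM in HuR-FKO iWAT against 31.6, 27.6 and 36.7 in Ctrl iWAT, without overlap (0.66 ± 0.13, limma adjusted p = 0.26). In eWAT it had 30.6, 37.2 and 36.9 FPKM in HuR-FKO against 33.5, 30.4 and 37.0 in Ctrl, and in BAT 233 and 213 against 224 and 192. The interaction, the HuR-FKO effect in iWAT minus that in eWAT, was 0.61 ± 0.18 (limma adjusted p = 1), so a difference between these depots was not shown. Across the 3 interactions 0 members passed the threshold (limma), beside 0.0151%, 0% and 0.00753% of all genes for iWAT minus eWAT, BAT minus eWAT and BAT minus iWAT. At an unadjusted p under 0.05, 3 members passed for iWAT minus eWAT, 3 for BAT minus eWAT and 2 for BAT minus iWAT, beside 3.06%, 5.38% and 4.89% of all genes, so these counts were near or below the background.

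The other members with the smallest p in a depot had small differences. In eWAT they were Mrps11 (-0.29 ± 0.12) and Mrpl33 (-0.27 ± 0.12), and in BAT Mrps9 (0.45 ± 0.14) and Mrpl50 (-0.36 ± 0.12). Mrps9 had 40.7 and 38.4 FPKM in HuR-FKO BAT against 26.8 and 30.5 in Ctrl BAT, and Mrpl50 had 34.8 and 33.5 against 44.8 and 43.3. The signs were not shared throughout: 24 of 76 genes lay above 0 in all 3 depots, beside 15.8% of all genes, and 12 below 0 in all 3, beside 27.2%. Mrpl49, Mrps5, Mrpl1 and Mrps6 were the 4 of 76 genes whose genotypes did not overlap in any depot, beside 1.89% of the 10620 genes tested in all 3 depots, and in the first 3 of these every library labelled HuR-FKO lay above every Ctrl library of its depot.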

How the data were processed

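RNA of 16 libraries (HuR-FKO and Ctrl, each with 2 of BAT, 3 of eWAT and 3 of iWAT, every library a pool of 3 animals) was sequenced by the authors as strand-specific, paired-end libraries, aligned to mm10 with TopHat2 2.0.11 and quantified with Cufflinks 2.1.1, and the deposited values are FPKM per gene with no read counts. Steps of low values in long single-transcript genes gave a rough depth of 6.01 to 17.9 M fragments per library, an estimate that assumes a fragment length of 200 bases and cannot always tell 1 read from 2.

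FPKM was taken as log2(FPKM + 1), and a fold change on this scale understates the change of low genes. Protein-coding genes (GENCODE M21, with 247 rows matched by symbol) above a mean of 1 FPKM in a compared group were tested with limma 3.58.1 in R 4.3.3, with a trend in eBayes and Benjamini-Hochberg adjustment over all genes tested. HuR-FKO comparisons used the libraries of 1 depot, depot comparisons those of 1 genotype, and interactions all 16 libraries. The fits were tested on simulated data. Alternatives were another pseudocount, no FPKM minimum, 2 scalings, all genes, no trend, a replicate block, all 16 libraries in 1 fit and leaving out each library. In Ctrl, same-numbered eWAT and iWAT libraries deviated together (r of 0.24, 0.28 and 0.19). In HuR-FKO these pairs had r of 0.077, 0.052 and 0.22. Same-numbered HuR-FKO and Ctrl libraries had 0.082, 0.025 and 0.39 in iWAT and 0.25, -0.26 and -0.075 in eWAT. In BAT both such pairs had 0.36, but with 2 libraries per group the deviations mirror each other and cannot decide. Differently numbered Ctrl eWAT and iWAT libraries had r of -0.16 to -0.072. However, differently numbered libraries of different mice also reached 0.35 (HuR-FKO iWAT 1 with Ctrl iWAT 2) and 0.34 (HuR-FKO eWAT 3 with Ctrl eWAT 2). Whether the numbers pair any of the groups was thus not settled.

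Named genes were the members past the threshold in a HuR-FKO comparison, the 3 of smallest p in each, the 5 largest and 5 smallest differences between Ctrl depots, the highest and lowest levels, and members with known roles. The members and lists were chosen with earlier results of these data known. Mrps5 and Mrpl1 in all depots, and the averaged effect, were chosen after their values were seen. Elavl1 is given for every library.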

Additional observations from a re-analysis of the deposited data

How the results depend on the processing

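Counts of members past the threshold, here in either direction, kept within 1.5 times of the reported one in most alternatives. The share of all genes was not taken for most of these alternatives, so the counts describe how stable the calls were. They do not show an excess over all genes. With median-ratio scaling the count was 72 for BAT against eWAT in Ctrl (71 higher and 1 lower, beside 22.6% and 30.9% of all genes). The count was 74 for BAT against iWAT in HuR-FKO and 7 for the effect averaged over depots. With nuclear-sum scaling it was 3 for eWAT against iWAT in Ctrl, and with all 16 libraries in 1 fit it was 1 for HuR-FKO against Ctrl in iWAT. The averaged effect was itself chosen after seeing the data. Leaving out 1 library at a time gave 1 to 7 members for eWAT against iWAT in Ctrl, 3 to 9 in HuR-FKO and 1 to 4 for the averaged effect, and 34 to 49 for BAT against iWAT and 32 to 46 for BAT against eWAT in Ctrl.

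Values that changed sign were those of BAT against iWAT in Ctrl with median-ratio scaling (Mrps26 0.058, Mrpl52 0.21, Mrps6 0.30, Mrps17 0.45, Mrpl24 0.63) and nuclear-sum scaling (Mrps17 0.030, Mrpl24 0.21), and of BAT against eWAT in Ctrl with median-ratio scaling (Mrpl49 0.20, Mrps17 0.33, Mrpl52 0.47) and nuclear-sum scaling (Mrpl52 0.11). Leaving out 1 library, Mrpl24 ran from -0.12 to 0.015 for BAT against iWAT, Mrpl12 from -0.27 to 0.071 for eWAT against iWAT, and Mrps36 from -0.016 to 0.14 in eWAT and -0.0090 to 0.21 in BAT for HuR-FKO against Ctrl. Apart from the scalings, which change the reference level, the cause was not tested.

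With the replicate block the count in either direction was 7 in place of 6 for eWAT against iWAT in Ctrl. Same-numbered libraries of these groups deviated together, without settling that they are paired. The share of all genes with the block was not taken. For the other comparisons the count was 48 and 43 for BAT against iWAT and BAT against eWAT in Ctrl, and 46, 50 and 8 for the same 3 comparisons in HuR-FKO. It was 0 for HuR-FKO against Ctrl in each depot and 4 for the averaged effect. FPKM without counts gives no counting error, and 2 BAT libraries per genotype limit the BAT comparisons.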

Other observations

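Since Mrps36 encodes a subunit of the oxoglutarate dehydrogenase complex, the other subunits were examined, chosen after their values were seen. Dlst, the E2 subunit, was lower in eWAT libraries labelled HuR-FKO, with 40.9, 40.6 and 38.8 FPKM in HuR-FKO against 85.6, 76.0 and 73.2 FPKM in Ctrl (-0.94 ± 0.09, limma adjusted p = 0.025). It had 155 and 164 FPKM in HuR-FKO BAT against 328 and 377 in Ctrl BAT (-1.14 ± 0.13, adjusted p = 0.26), and 59.7, 69.5 and 51.4 in HuR-FKO iWAT against 107, 81.9 and 90.0 in Ctrl iWAT (-0.62 ± 0.15, adjusted p = 0.29), without overlap in any depot. Averaged over depots, Dlst had -0.90 ± 0.08 (limma adjusted p = 3.8e-05). The E1 subunit Ogdh and the E3 subunit Dld had averaged values of 0.13 ± 0.07 and 0.25 ± 0.08, neither past the threshold.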
